A study of Mus musculus with 22 samples.

Results

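The 26S proteasome was followed in mouse hypothalamus through the genes for its constitutive subunits. Membership was by name: symbols beginning Psma, Psmb, Psmc or Psmd followed only by a number, without the inducible catalytic subunits Psmb8, Psmb9 and Psmb10. The rule found 36 genes, measured by 42 probe sets, among 19935 genes measured by probe sets with a single gene symbol. They comprised 8 alpha and 8 beta genes of the core particle, 6 base ATPase genes (Psmc1 to Psmc6) and 14 Psmd genes. Not every one is a constitutive subunit in the strict sense: Psma8 is a testis-type alpha subunit, Psmb11 a thymus-type beta subunit, and Psmd5, Psmd9 and Psmd10 encode chaperones that help the base to assemble.

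RNA came from the hypothalamus of male C57bl6 mice 9 to 12 weeks old that lacked interleukin-6 (KO) or were wild-type littermates (WT), a genotype carried by the animal and not by 1 cell type. Each mouse received 1 intraperitoneal injection of Escherichia coli lipopolysaccharide (LPS, a component of the bacterial outer membrane that provokes fever) at 120 µg/kg, or saline, and was killed 3 h later and perfused. The 22 arrays held 7 WT after LPS, 4 WT after saline, 7 KO after LPS and 4 KO after saline. The design text names the comparison of LPS-treated genotypes and their difference in fever as the question. Nothing in the labels states that the arrays came from separate animals. The p-values therefore reflect variation among arrays, which may be technical, and the number of arrays limits the precision.

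Values are log2 differences from the median array of each gene, because each probe set was centred on 0. They hold no expression level, so neither the tissue label nor the order of levels between genes could be checked. RNA was from whole tissue, so fewer cells of a type and less RNA per cell cannot be told apart. The Il6 value ranged from -0.10 to 0.28 in WT after LPS and from -0.0059 to 0.61 in KO after LPS, and it rose with LPS in KO by 0.36 (SE 0.08, limma adjusted p = 0.0193). The Il6 value thus did not separate the genotypes, and where its probes lie relative to the deleted part is not given in the sources used here, so it checks no label: WT and KO below are the genotypes as labelled. Of the 9 marker lists for cell types and regions, those of endothelium, pituitary and choroid plexus varied most, and their values are given beside the results they move with.

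The proteasome degrades proteins tagged with ubiquitin. Its barrel-shaped core particle has outer rings of alpha subunits that gate the entry and inner rings of beta subunits, of which Psmb5 (chymotrypsin-like activity), Psmb6 (caspase-like) and Psmb7 (trypsin-like) carry the active sites. A regulatory particle caps the barrel: the Psmc ATPases unfold the substrate, while Psmd subunits receive ubiquitin chains (Psmd4), remove them (Psmd14) and hold the lid and base together. In inflamed tissue, interferons induce Psmb8, Psmb9 and Psmb10, which replace Psmb5, Psmb6 and Psmb7 in newly assembled particles, and Psme1 and Psme2, which form the alternative cap PA28. Loss of proteasome activity in turn raises subunit transcription through the factor Nfe2l1, which acts at antioxidant response elements.

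The promoters of the catalytic subunits on which the results turn are shown first, as the 250 bases before the RefSeq start on the GRCm38.p6 build, 5′ to 3′ along the gene. Psmb5 and Psmb6 are the constitutive subunits, Psmb8 and Psmb9 those that take their places. Capitals mark the letters TGANNNNGC of the antioxidant response element, searched on both strands.
Psmb5 promoter (chr14:54617996-54618245, minus strand): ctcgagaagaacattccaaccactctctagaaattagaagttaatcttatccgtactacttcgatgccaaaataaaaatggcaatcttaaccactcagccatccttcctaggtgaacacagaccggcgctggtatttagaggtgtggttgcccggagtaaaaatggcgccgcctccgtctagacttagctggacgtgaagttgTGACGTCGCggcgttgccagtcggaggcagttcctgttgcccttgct
Psmb6 promoter (chr11:70525107-70525356, plus strand): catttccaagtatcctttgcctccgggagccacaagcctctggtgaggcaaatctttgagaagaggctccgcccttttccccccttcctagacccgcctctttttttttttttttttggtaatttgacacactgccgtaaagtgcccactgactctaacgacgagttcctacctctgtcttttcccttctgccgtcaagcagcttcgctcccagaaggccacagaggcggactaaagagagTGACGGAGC
Psmb8 promoter (chr17:34197945-34198194, plus strand): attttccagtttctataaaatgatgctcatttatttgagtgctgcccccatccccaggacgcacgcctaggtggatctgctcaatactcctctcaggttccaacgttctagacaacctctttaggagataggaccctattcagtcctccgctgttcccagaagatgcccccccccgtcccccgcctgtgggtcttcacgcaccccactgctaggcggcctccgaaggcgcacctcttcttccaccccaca
Psmb9 promoter (chr17:34187331-34187580, minus strand): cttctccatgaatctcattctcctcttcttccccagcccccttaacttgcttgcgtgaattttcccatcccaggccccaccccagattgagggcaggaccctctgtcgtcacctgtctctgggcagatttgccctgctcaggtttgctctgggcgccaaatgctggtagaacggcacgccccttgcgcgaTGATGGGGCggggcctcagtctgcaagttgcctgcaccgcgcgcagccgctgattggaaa
Psmb5, Psmb6 and Psmb9 each hold 1 match in the printed stretch, and Psmb8 holds 0. In the 300-base windows that run 50 bases past the start, Psmb5 holds 2 matches and Psmb8 holds 1. The table had windows for 29 of the 36 genes, 31 windows in all, and Psmb7 had none. The element's letters were in 18 of the 31 windows, or 58.1%, against 41.3% of all 32851 promoter windows, and in 4 of 6 windows of the inducible subunits and PA28. The interferon response element, searched on both strands as a pair of GAAA runs 2 bases apart, was in 3 windows (Psmb3, Psmd4 and Psmd9), or 9.68%, against 3.44% of all windows, and among the inducible and PA28 genes in that of Psme1. The motifs were searched separately, so their letters may overlap where 1 window holds both, and a match is a description of letters, not a binding site.

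The genotypes differed most clearly in Psmb5. After LPS its value in WT was lowest at -0.31, median -0.16 and highest at 0.0025, and in KO it was lowest at 0.04, median 0.13 and highest at 0.22. Every KO array lay above every WT array. The KO mean exceeded the WT mean by 0.28 (SE 0.05, 95% interval 0.18 to 0.37, 1.21-fold), a difference larger than the spread within either group (SD 0.11 in WT and 0.07 in KO), with a limma adjusted p of 0.0164 over all genes. Psmb5 was the only one of the 36 genes called, against 0.0401% of all genes, and the only one whose KO and WT arrays did not overlap, against 0.0752% of all genes with KO above WT (0.0552% with KO below). The call was lost without WT LPS replicate 3 (limma adjusted p = 0.0570), KO LPS replicate 3 (0.0509) or KO LPS replicate 6 (0.0624), with differences of 0.26 in each case. Its chromosome, 14, is not that of Il6, which lies on chromosome 5.

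The same direction was seen without LPS. After saline the WT values of Psmb5 were -0.12, -0.11, -0.04 and -0.03, and the KO values -0.0025, 0.13, 0.14 and 0.19. All 4 KO arrays lay above all 4 WT arrays, and the difference was 0.19 (SE 0.06, limma adjusted p = 0.840, unadjusted p = 0.00475). Averaged over both treatments, a comparison chosen after the data were seen, Psmb5 was higher in KO by 0.23 (SE 0.04, limma adjusted p = 0.0120), again the only one of the 36 called, against 0.0251% of all genes. In that comparison 21 of the 36 had an unadjusted p under 0.05 with KO higher, against 10.1% of all genes, and 0 with KO lower, against 6.12%. These counts are from the fit without array number, over which the genotypes were spread unevenly, as given below. The averaged call was lost with the array-number block (0.21, adjusted p = 0.158), and also without WT saline replicate 1 (adjusted p = 0.0566) or replicate 3 (adjusted p = 0.0512), and 4 of the 36 were called without KO LPS replicate 1, against 0.868% of all genes. The LPS difference of Psmb5 was -0.07 (SE 0.05) in WT and 0.02 (SE 0.05) in KO, and the difference between those effects was 0.09 (SE 0.08, unadjusted p = 0.270).

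Psmb6, the caspase-like subunit, came next among the catalytic genes. Its WT values after LPS ran from -0.22 through a median of -0.11 to 0.03, and its KO values from -0.03 through 0.06 to 0.16. The groups overlapped, and the difference of 0.17 (SE 0.04) had an unadjusted p of 0.000435 but a limma adjusted p of 0.193. After saline the WT values were -0.10, -0.04, -0.02 and 0.05, the KO values -0.0058, 0.08, 0.14 and 0.16, and the difference 0.12 (SE 0.06, limma adjusted p = 0.840). Psmb7, the trypsin-like subunit, overlapped more. Its WT values after LPS ran from -0.27 through -0.09 to 0.05 and its KO values from -0.09 through -0.01 to 0.12, a difference of 0.09 (SE 0.05, limma adjusted p = 0.464). After saline the WT values of Psmb7 were -0.07, -0.07, 0.04 and 0.04 and the KO values 0.01, 0.02, 0.09 and 0.10.

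**Figure D1:**
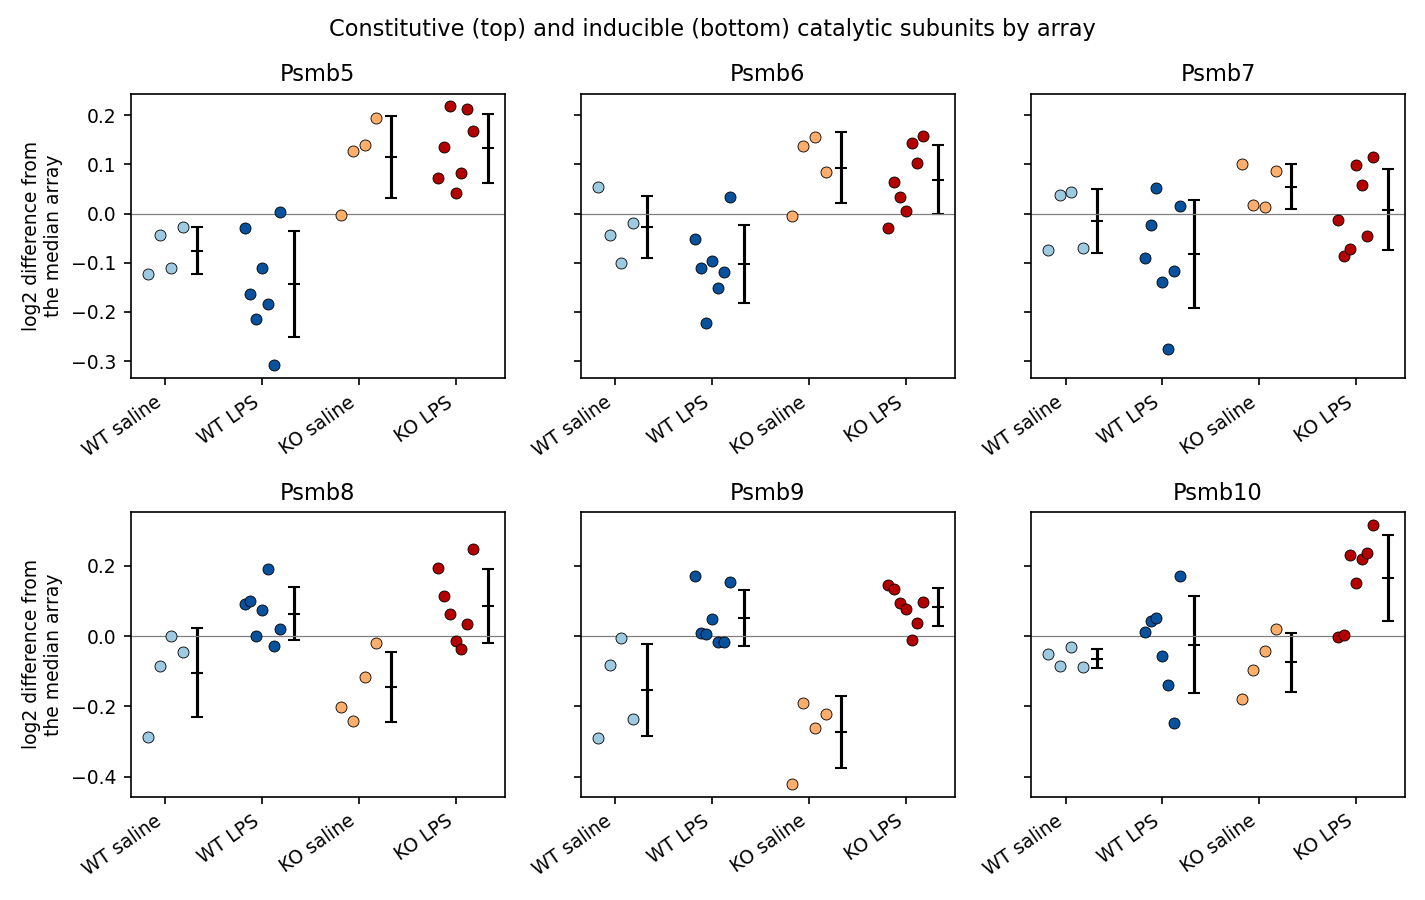
Log2 difference from the median array (y axis) for each array in the 4 groups (x axis), with mean and SD bars beside the points, for the constitutive catalytic subunits Psmb5, Psmb6 and Psmb7 (top) and the inducible Psmb8, Psmb9 and Psmb10 (bottom). Psmb5 in KO after LPS lies between 0.04 and 0.22, above every WT array after LPS, while Psmb8 and Psmb9 lie higher after LPS than after saline on average in both genotypes.

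The other members leaned the same way after LPS without passing the test. The KO mean was above the WT mean for 30 of 36 genes, with a median difference of 0.12 against -0.0024 over all genes, and 16 had an unadjusted p under 0.05 with KO higher, against 7.19% of all genes. None had an unadjusted p under 0.05 with KO lower, against 4.18% of all genes. Among alpha genes 7 of 8 were above 0 (median 0.18), among beta genes 7 of 8 (median 0.14), among base ATPases 4 of 6 (median 0.04) and among Psmd genes 12 of 14 (median 0.10). The 36 genes share arrays and varied together, so these counts are a description and not independent tests.

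Of the alpha ring, Psma7 differed by 0.35 (SE 0.11, limma adjusted p = 0.339), with WT from -0.42 through -0.17 to 0.35 and KO from -0.27 through 0.33 to 0.50. In KO, 5 arrays lay at 0.28 or above and 2 lay among the low WT values, while WT LPS replicate 7 lay among the high KO values. Of the regulatory particle, Psmd4, a ubiquitin receptor, differed by 0.17 (SE 0.04, unadjusted p = 0.000494, limma adjusted p = 0.194), with WT from -0.19 through -0.13 to 0.0017 and KO from -0.11 through 0.04 to 0.16. Psmd14, the deubiquitinase of the lid, differed by 0.34 (SE 0.13, limma adjusted p = 0.363) and Psmd10 by 0.31 (SE 0.12, limma adjusted p = 0.361). Psmc2, a base ATPase encoded 8.23 Mb from Il6 on chromosome 5 (GRCm38.p6), differed by 0.13 (SE 0.04, limma adjusted p = 0.338). Below 0 the largest differences were -0.04 for Psmd9 (SE 0.04), -0.03 for Psma8 (SE 0.05) and -0.03 for Psmc4 (SE 0.05).

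**Figure D2:**
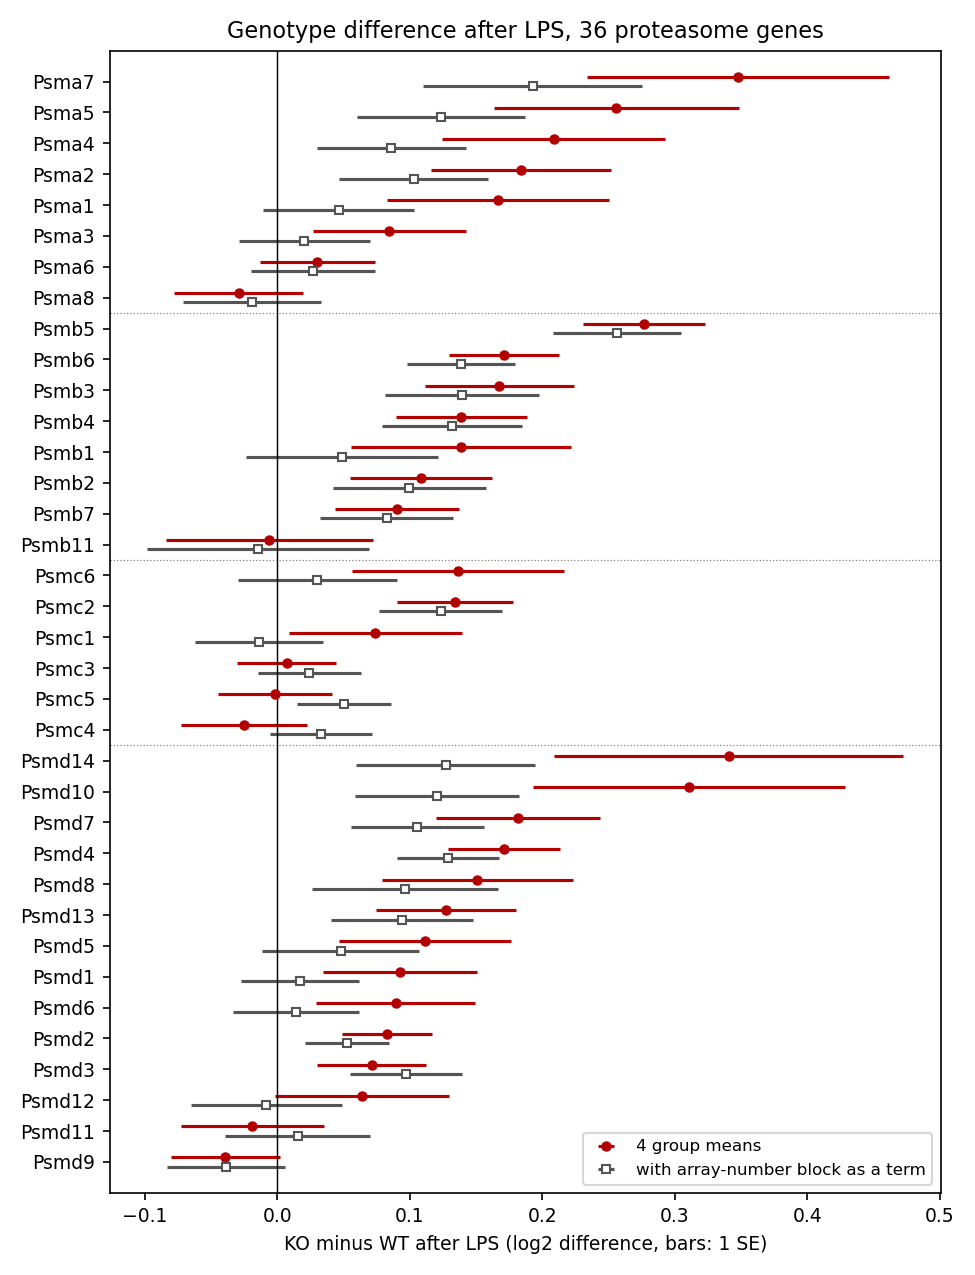
KO minus WT after LPS as a log2 difference (x axis) for the 36 genes, ordered within alpha, beta, base ATPase and Psmd genes, with bars of 1 SE, fitted with 4 group means (filled circles) and with the array-number block added (open squares). Psmb5 moves from 0.28 to 0.26 with the block, while Psmd14 moves from 0.34 to 0.13.

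Many of the 36 genes also varied with array number, the running number from 1 to 22 in the sample titles, and the labels do not say what it counts. Genotypes were spread unevenly over it: WT LPS had 5 arrays among numbers 1 to 11 and 2 among 12 to 22, WT saline 3 and 1, KO LPS 2 and 5, and KO saline 1 and 3. Between these 2 blocks of arrays, with group means in the fit, 19 of the 36 genes were called, 17 higher and 2 lower in arrays 12 to 22, against 21.5% of all genes (10.9% higher and 10.6% lower). Psmd14 was higher by 0.50 (SE 0.06), Psmd10 by 0.44 (SE 0.05), Psma7 by 0.36 (SE 0.07), Psma5 by 0.31 (SE 0.05), Psma4 by 0.29 (SE 0.05) and Psma1 by 0.28 (SE 0.05). The ATPase genes Psmc4 and Psmc5 were lower, by -0.13 and -0.12 (SE 0.03 each). The other regulatory-particle genes called were higher: the ATPases Psmc6 by 0.25 and Psmc1 by 0.21, Psmd7, Psmd6 and Psmd1 by 0.18 each, Psmd12 by 0.17, Psmd5 by 0.15 and Psmd4 by 0.10. The remaining alpha genes called were Psma2 at 0.19 and Psma3 at 0.15. With arrays split into 3 blocks of numbers, 11 of the 36 were called, against 9.17% of all genes, and with array number as a linear term 15 were, against 16.6%. Some marker genes were called between the 2 blocks too, beside 21.5% of all genes. The neuronal markers Tubb3 (-0.36, SE 0.05, limma adjusted p = 8.16e-05) and Rbfox3 (-0.24) were lower, 2 of 6. Without a call, Stmn2 leaned lower and Nefl, Syt1 and Snap25 leaned higher. The oligodendrocyte marker Mobp was lower (-0.27), 1 of 5, and the other measured ones leaned lower without a call. The astrocyte marker Aqp4 was higher (0.23), 1 of 6. Without a call, Gfap, Aldh1l1, Slc1a2 and Slc1a3 leaned lower and Gja1 higher, so the lists did not move as 1. Of the 5 hypothalamic peptide genes, Pmch was higher (0.25) and Trh lower (-0.23). None of the measured markers of microglia, endothelium, choroid plexus, pituitary or blood cells was called, and the part of these cells in the members' differences between blocks was not tested.

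Called with array number were 6 of 8 alpha genes, 8 of 14 Psmd genes, 4 of 6 ATPase genes and 1 of 8 beta genes (Psmb1, 0.21, SE 0.06). The catalytic genes were not called: Psmb5 differed by 0.05 (SE 0.04, limma adjusted p = 0.482), Psmb6 by 0.08 (SE 0.03, limma adjusted p = 0.128) and Psmb7 by 0.02 (SE 0.04, limma adjusted p = 0.836). The median of the 36 genes was negative in arrays 1 to 12 except array 7, a KO saline array at 0.04, and positive in arrays 13 to 22, at 0.03 to 0.14. Its lowest value was -0.16 in WT LPS replicate 5.

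**Figure D3:**
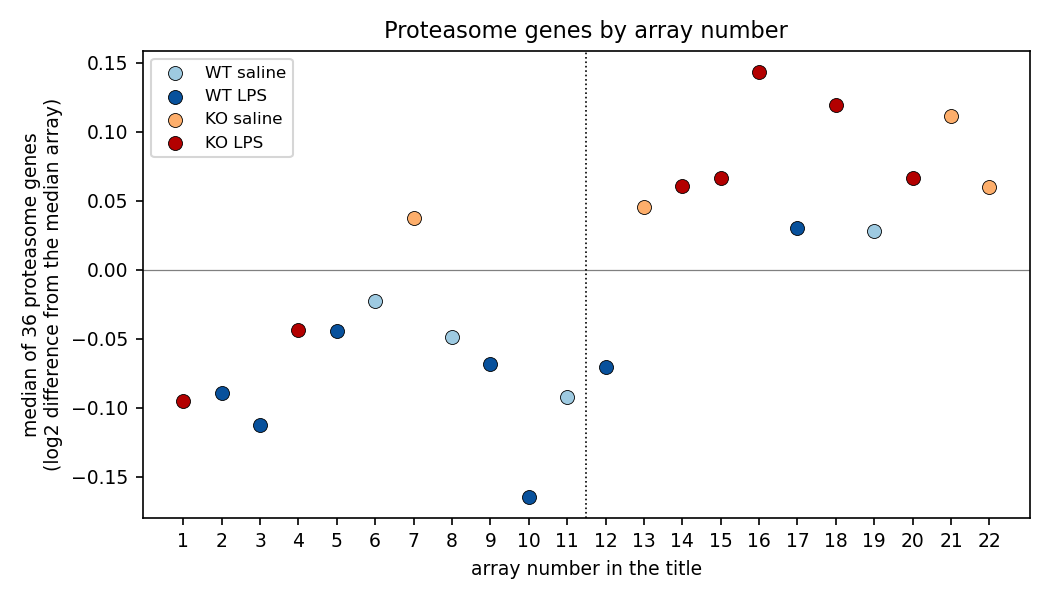
Median over the 36 genes of the log2 difference from the median array (y axis) against the array number in the sample title (x axis), coloured by group, with a dotted line between numbers 11 and 12. Arrays 13 to 22 lie above 0 in all 4 groups, and among arrays 1 to 12 only array 7 does.

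The genotype comparison was therefore repeated with array number in the fit. With the block as a term, 0 of the 36 genes were called after LPS, against 0.0100% of all genes, and 9 had an unadjusted p under 0.05 with KO higher, against 3.43% of all genes, and 0 with KO lower, against 1.74%. The median difference was 0.07, and 31 of 36 lay above 0. Psmb5 kept most of its size at 0.26 (SE 0.05), with a limma adjusted p of 0.0722. Psmb6 was at 0.14 (SE 0.04), Psmd4 at 0.13 (SE 0.04), Psmc2 at 0.12 (SE 0.05), Psma7 at 0.19 (SE 0.08), Psmd14 at 0.13 (SE 0.07) and Psmd10 at 0.12 (SE 0.06). In the fit without the block but with array weights estimated by limma, 11 of the 36 were called, Psmb6 and Psmd4 among them, against 3.08% of all genes, and 16 in the average over both treatments, against 10.3%.

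The differences were also computed within each block of arrays. Among arrays 1 to 11 the genotype difference after LPS had a median of 0.0040 over the 36 genes, 19 lay above 0 and 2 had an unadjusted p under 0.05 with KO higher, against 1.72% of all genes, and 0 with KO lower, against 1.06%. Among arrays 12 to 22 the median was 0.14, 29 lay above 0 and 14 had an unadjusted p under 0.05 with KO higher, against 4.57%, and 0 with KO lower, against 2.63%. Psmb5 differed by 0.24 in the first block and by 0.30 in the second, and Psmb6 by 0.14 and 0.13. Psma7 differed by 0.0027 and 0.33, and Psmd14 by -0.04 and 0.31. The 2 WT LPS arrays of the second block, numbers 12 and 17, lay far apart. Psma7 was at -0.23 and 0.35 in them, against 0.28 to 0.50 in the 5 KO LPS arrays. Psmd14 was at -0.04 and 0.36, against 0.35 to 0.59. The median of the 36 genes was -0.07 in array 12 and 0.03 in array 17. Array 12 lies next to the cut, so another cut could change the second-block values, and none was tried for them. In either block 0 genes of the whole table passed the adjusted threshold, with 2 KO LPS arrays in the first block and 2 WT LPS arrays in the second.

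**Figure D4:**
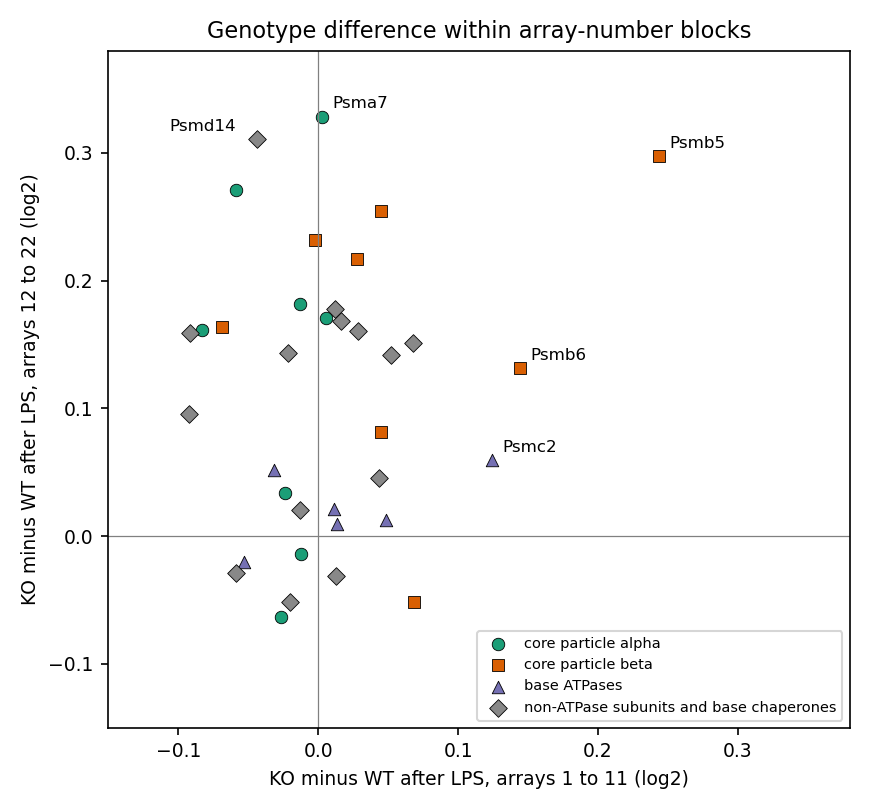
KO minus WT after LPS within arrays 1 to 11 (x axis) against the same within arrays 12 to 22 (y axis), log2 differences, 1 point per gene, shaped by subcomplex. Psmb5 (0.24 and 0.30) and Psmb6 (0.14 and 0.13) lie above 0 on both axes, while Psma7 and Psmd14 lie near 0 on the first axis and at 0.33 and 0.31 on the second.

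Marker genes of other cells moved between the same groups. All 6 endothelial markers were above 0 in KO against WT after LPS (0 called, 5 with an unadjusted p under 0.05, median 0.24), and their sum ran from -1.0 to 1.51 in KO and from -2.07 to -1.39 in WT. All 5 measured microglial markers were above 0 too, with sums from -0.34 to 0.54 in KO and -0.73 to 0.01 in WT. The sum of the 5 measured pituitary markers reached 7.17 in 1 KO LPS array and 7.99 in 1 KO saline array, and that of the 6 choroid plexus markers 7.75 in 1 WT saline array. In a further fit, the array with the highest sum of either list was left out of each of the 4 groups. These were WT saline replicate 1, WT LPS replicate 5, KO saline replicate 2 and KO LPS replicate 3. Kept were KO LPS replicate 5 (pituitary sum 4.26), KO LPS replicate 4 and WT LPS replicate 2 (choroid plexus sums 2.43 and 2.37). Psmb5 then differed by 0.26 after LPS (SE 0.05, limma adjusted p = 0.152). The part of these cells in the members' differences was not tested.

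After saline the median genotype difference over the 36 genes was 0.10, with 31 above 0 and 0 called, against 0.00502% of all genes. By unadjusted p under 0.05, 5 genes were higher in KO, against 2.95% of all genes, and 0 lower, against 2.21%. In 6 genes every KO array lay above every WT array (Psmb2, Psmb5, Psmd6, Psmd7, Psmd9 and Psmd12), against 1.78% of all genes, and in 0 the reverse held, against 1.19%. Psmd6 differed by 0.21 (SE 0.08), Psmd7 by 0.20 (SE 0.08) and Psmb2 by 0.17 (SE 0.07), and below 0 Psmd11 by -0.07, Psmc4 by -0.06 and Psmc3 by -0.03. All of these had limma adjusted p-values of 0.840 or more. The values below 0 moved with single arrays: Psmd11 was at -0.14 without KO saline replicate 1 and -0.01 without WT saline replicate 1, Psmc4 at -0.14 without KO saline replicate 1 and -0.02 without KO saline replicate 4, and Psmc3 at -0.06 without WT saline replicate 4 and -0.0050 without KO saline replicate 3. With the block term, the median was 0.06, 28 lay above 0, 2 had an unadjusted p under 0.05 with KO higher, against 1.91% of all genes, and 0 with KO lower, against 1.35%.

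LPS changed none of the 36 genes by the adjusted test in either genotype. In WT 0 were called, against 1.80% of all genes, the differences ran from -0.14 to 0.07, 9 lay above 0 and the median was -0.04 against -0.01 over all genes. By unadjusted p under 0.05, 0 were higher (3.38% of all genes) and 1 was lower (3.04%). That gene was Psmd4, whose WT values after LPS ran from -0.19 through -0.13 to 0.0017 and after saline from -0.03 to 0.02, a difference of -0.12 (SE 0.05, unadjusted p = 0.0228, limma adjusted p = 0.539). Psmb3 differed by -0.12 (SE 0.07) and Psmd2 by -0.07 (SE 0.04), and above 0 Psmd9 by 0.07, Psmb2 by 0.07 and Psmc3 by 0.05. Without WT saline replicate 3, Psmd9 was at 0.01 and Psmb2 at 0.02, and without WT saline replicate 4, Psmc3 was at 0.01 and Psmb3 at -0.07. The median over the 36 ran from -0.07 without WT LPS replicate 7 to -0.01 without WT saline replicate 4. The 95% intervals of the 36 differences lay within -0.45 to 0.29. Their LPS and saline arrays overlapped in all 36 genes, against 1.63% of all genes with LPS wholly above saline and 0.712% wholly below.

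In KO 0 were called, against 1.34% of all genes, the differences ran from -0.13 to 0.08, 13 lay above 0 and the median was -0.02. None had an unadjusted p under 0.05, against 3.04% of all genes higher and 2.79% lower. Psmc3 differed by 0.08 (SE 0.04, limma adjusted p = 0.955), Psmd9 by -0.07 (SE 0.05), Psmd12 by -0.11 (SE 0.08) and Psma1 by -0.13 (SE 0.10). Without KO LPS replicate 1, Psmd12 was at -0.06 and Psma1 at -0.07, and the median over the 36 was 0.0019, on the other side of 0, while without KO LPS replicate 5 it was -0.04. Within arrays 1 to 11, which hold 1 KO saline array, the median was -0.16, and within arrays 12 to 22 it was 0.03. The 95% intervals lay within -0.42 to 0.32, and LPS and saline arrays again overlapped in all 36 genes, against 1.21% of all genes wholly above and 0.446% wholly below. Over both genotypes 0 were called, against 2.76% of all genes, 5 lay above 0, and with an unadjusted p under 0.05 1 was higher (4.25% of all genes) and 0 lower (4.89%). That gene was Psmc3, a base ATPase (0.07, SE 0.03, unadjusted p = 0.0442, limma adjusted p = 0.518).

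The difference between the LPS effects of the genotypes was called for 0 genes of the whole table, 0% of all genes. With an unadjusted p under 0.05, 0 of the 36 were higher in KO (0.888% of all genes) and 1 was lower (0.752%), Psmd9 at -0.14 (SE 0.07, unadjusted p = 0.0479, limma adjusted p = 0.999994). Without WT saline replicate 3 it was -0.09. Next was Psmd4 at 0.13 (SE 0.07, unadjusted p = 0.0772).

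Of the inducible subunits, Psmb8 and Psmb9 were called higher after LPS in the average over both genotypes. Psmb9 rose in KO by 0.36 (SE 0.06, limma adjusted p = 0.000306), with saline values from -0.42 to -0.19 and LPS values from -0.01 to 0.15 that did not overlap. In WT Psmb9 differed by 0.20 (SE 0.06, limma adjusted p = 0.0677), was not called, and its LPS and saline values overlapped. Over both genotypes Psmb8 was higher after LPS by 0.20 (SE 0.04, limma adjusted p = 0.00673) and Psmb9 by 0.28 (SE 0.04, limma adjusted p = 3.19e-05). Within each genotype the Psmb8 values overlapped. They ran from -0.29 to 0.00055 after saline and -0.03 to 0.19 after LPS in WT. In KO they ran from -0.24 to -0.02 and from -0.04 to 0.25. Psmb10 differed by 0.04 (SE 0.07) in WT and by 0.24 (SE 0.07, limma adjusted p = 0.108) in KO. Of PA28, Psme2 differed by 0.14 and 0.16 and Psme1 by -0.0077 and -0.04, none called. Endothelial markers fell with LPS, 6 of 6 called in WT and 5 of 6 in KO, and their part in these values was not tested. Microglial markers lay lower after LPS in WT, 5 of 5 below 0 with 1 called (Cx3cr1, -0.46, SE 0.08, limma adjusted p = 0.00123) and sums of 0.39 to 0.66 after saline against -0.73 to 0.01 after LPS. In KO 3 of 5 were below 0 and 0 called, with overlapping sums of 0.0036 to 0.92 and -0.34 to 0.54. Their part was not tested.

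**Figure D5:**
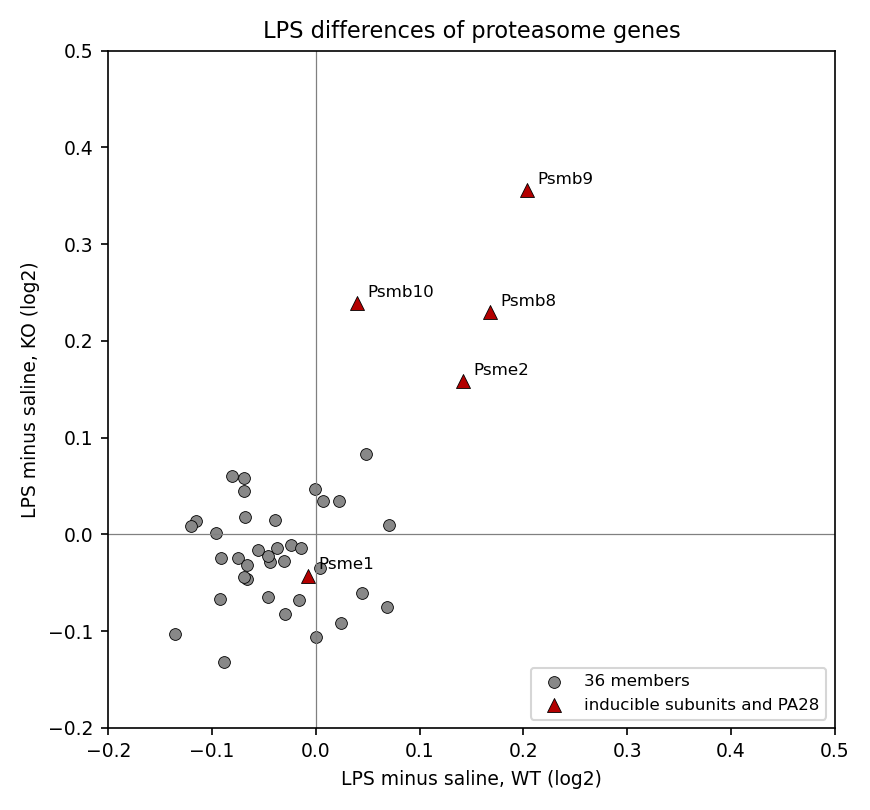
LPS minus saline in WT (x axis) against the same in KO (y axis), log2 differences, 1 point per gene, for the 36 members (grey circles) and the inducible subunits and PA28 (red triangles). Members lie between -0.14 and 0.07 on the first axis and -0.13 and 0.08 on the second, while Psmb9 lies at 0.20 and 0.36.

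Each inducible subunit was set against the constitutive subunit it replaces, array by array, in an exact permutation test of 2 sides over 330 regroupings, with 6 tests adjusted by Benjamini-Hochberg. The smallest p possible was 0.00606. The Psmb8 minus Psmb5 value was higher after LPS by 0.24 in WT (exact p = 0.0121, adjusted p = 0.0145) and by 0.21 in KO (exact p = 0.00606, adjusted p = 0.00909). The Psmb9 minus Psmb6 value was higher by 0.28 in WT (exact p = 0.00606) and by 0.38 in KO (exact p = 0.00606). For Psmb10 minus Psmb7 the difference was 0.11 in WT, with overlapping groups (exact p = 0.0848), and 0.29 in KO (exact p = 0.00606), and the WT difference passed without WT LPS replicate 6 (0.14, adjusted p = 0.0190). Without the array of highest pituitary or choroid plexus sum in each of the 4 groups, the Psmb8 minus Psmb5 difference in WT was 0.16 (adjusted p = 0.0571). These values show unequal change within each pair and no ratio of levels.

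Other genes of the pathway gave few calls with LPS or genotype and more with array number. Nfe2l2, a transcription factor related to Nfe2l1 and active in oxidative stress, rose with LPS in WT by 0.34 (SE 0.06, limma adjusted p = 0.00142), with LPS values of 0.02 to 0.29 and saline values of -0.27 to -0.10. In KO it differed by 0.21 (SE 0.06, limma adjusted p = 0.151). No other measured gene among 5 core assembly factors, 11 caps and associated factors, 5 regulators or 4 ubiquitin and shuttle genes was called in an LPS or genotype comparison. Of all genes, 1.80% were called with LPS in WT and 1.34% in KO. Between genotypes 0.0401% were called after LPS and 0.00502% after saline. Nfe2l1 itself differed by -0.02 with LPS in WT, -0.0092 in KO and -0.04 between genotypes after LPS, none called. Txnl1, a proteasome-bound thioredoxin, differed by 0.23 between genotypes after LPS (SE 0.09, limma adjusted p = 0.366). Between the 2 array-number blocks 21.5% of all genes were called, 10.9% higher and 10.6% lower. Beside that share, 1 of 5 assembly factors was higher (Psmg2, 0.18). Of 11 cap genes 4 were higher (Txnl1, Uchl5, Usp14 and Psme4, 0.25 to 0.29) and 2 lower (Psme3 and Sem1). Of the 5 regulators Ngly1 (0.25) and Vcp (0.19) were higher and Nfe2l1 was lower (-0.14). Of the 4 ubiquitin and shuttle genes Rad23b (-0.17) and Ubqln4 (-0.23) were lower, and 0 of the 5 inducible and PA28 genes were called.

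After removal of group means, members of the same arrays moved together. The median Pearson correlation was 0.32 over the 630 pairs of the 36 genes, against 0.013 over all gene pairs, and it was 0.56 among alpha genes, 0.55 among Psmd genes, 0.25 among beta genes and 0.21 among ATPase genes. With the array block also removed it was 0.29 over the 36 genes, 0.46 among alpha genes, 0.37 among Psmd genes, 0.36 among ATPase genes and 0.21 among beta genes, lower than before in each group except the ATPases. Psmb5 had a median correlation of 0.09 with the other members after that removal, Psma1 0.52 and Psmb11 -0.51. These correlations are over 22 arrays that share normalization and are given as a description.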

How the data were processed

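Hypothalamus RNA (200 ng per array) from 22 samples was hybridised to 1-colour Affymetrix arrays. The deposited log2 values were made by the authors with RMA, per the submitters' processing notes, and the table shows every probe set centred on 0 (column medians -0.01 to 0.03). The log base was taken as 2, and neither the build nor the array annotation is given in the sources used here. Of 28815 probe sets, 21780 with 1 gene symbol were averaged per gene, giving 19935 genes, and 7035 with several or no symbol were left out; 31 members had 1 probe set and 5 had several.

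Groups came from the labels. The deposited values were fitted with limma 3.58.1 in R 4.3.3 (lmFit and eBayes, 1 mean per group, two-sided, Benjamini-Hochberg over all 19935 genes, threshold 0.05), after the fit was tested on simulated data. Catalytic pairs used exact permutation tests in scipy 1.17.1. Members, lists and tests were chosen with earlier results of these data known. Values were printed for the catalytic subunits and for members called in a group or array-number comparison. The 3 members of smallest p per direction were printed for LPS in WT and for the genotypes after LPS and after saline. For LPS in KO, the averages and the interaction fewer of them were printed. Others named were chosen after their values were seen. Alternatives were array number as a block or linear term, each block of arrays alone, other scalings, probe set choices, array weights, robust moderation, only the groups compared, and each array left out in turn. Protein sequences were not used here. With centred values, no filter on low expression was possible.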

Additional observations from a re-analysis of the deposited data

Results flagged for a closer look

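Single arrays stood apart from the rest of their group in 11 of 148 checks, made for each of the 36 genes and for their median in 4 groups. In each of the 11, the gap between the farthest array and its nearest neighbour, divided by the range of the group, exceeded Dixon's 95% critical value, which chance alone gives in about 1 of 20 groups. WT LPS replicate 7, array number 17, was the highest of its group for Psma5 (0.22, next -0.08), Psma7 (0.35, next -0.12), Psmd14 (0.36, next -0.04) and Psmd8 (0.23, next -0.04). WT saline replicate 4, array number 19, was the highest of its group for Psma7 (0.24, next -0.10) and Psmd14 (0.51, next -0.03). WT saline replicate 3 was the highest for Psmb11 at 0.21 (next -0.03) and the lowest for Psmd9 at -0.22 (next -0.0065). WT saline replicate 1 was the highest for Psmd11 at 0.18 (next -0.02). KO saline replicate 3 was the highest for Psma2 at 0.17 (next 0.00043), and KO LPS replicate 7 the highest for Psma8 at 0.13 (next 0.02).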

How the results depend on the processing

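The direction of the Psmb5 difference after LPS held in all 34 alternatives, at 0.24 to 0.30 (adjusted p = 0.0047 to 0.999944), and its call was lost in 8: the array block (0.0722), each block of arrays alone (0.999944 and 0.643), without the 4 arrays of pituitary or choroid plexus signal (0.152), only the groups compared (0.115), and without WT LPS replicate 3 (0.0570), KO LPS replicate 3 (0.0509) or KO LPS replicate 6 (0.0624). Called members after LPS were 1 in the reported fit, 0 under those settings, 11 with array weights (3.08% of all genes), and 0 to 1 with single arrays left out. Called members averaged over treatments were 1 in the reported fit, 0 with the block, the linear term, within either block and without the 4 arrays, 16 with array weights (10.3%), and 0 to 4 with single arrays left out (4 without KO LPS replicate 1, with 0.868% of all genes, 0 without WT saline replicate 1 or 3). Called members between array blocks were 19, against 11 with 3 blocks of numbers (9.17% of all genes in place of 21.5%) and 15 with a linear term (16.6%). The median LPS difference of members in KO, -0.02, turned to 0.0019 without KO LPS replicate 1, 0.0044 with the linear term and 0.03 within arrays 12 to 22. The Psmb8 minus Psmb5 difference in WT was 0.16 (adjusted p = 0.0571) without the 4 arrays, and that of Psmb10 minus Psmb7 ran from 0.081 to 0.14 with single arrays left out, called only without WT LPS replicate 6 (0.14, adjusted p = 0.0190). Over the LPS comparisons, the saline genotype comparison and the interaction, 0 members were called under every alternative. The causes were not tested. No paired analysis was possible because the sample titles carry running array numbers and no replicate number shared between groups.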

Other observations

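Of the 5 members measured by several probe sets, the sets moved alike in the genotype comparison after LPS for 3 of them, where the 3 sets of Psma3 differed between KO and WT by 0.08, 0.08 and 0.09, those of Psma5 by 0.27 and 0.24, and those of Psmb3 by 0.17 and 0.16. For Psmc1 the sets gave 0.04 and 0.11 and for Psmd2 0.05 and 0.11. For LPS in KO the 2 sets of Psmb3 lay on either side of 0, at 0.07 and -0.05. Some proteasome genes have near-identical copies elsewhere in the genome, and probe sets of such genes may read more than 1 copy.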
